A study of Macaca mulatta with 9 samples.

Results

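The comparison described here set 5 embryonic stem (ES) cell lines of the rhesus monkey against embryoid bodies (EBs) left to differentiate for 30 days, as whole samples and across all genes on the array. It used 8 of the 9 arrays of the series. ORMES6 was hybridised as 3 biological replicates (A, B and C), which were averaged, and ORMES7, ORMES9, ORMES10 and ORMES13 as 1 array each, so that the 5 lines were the replicates. The EBs were 1 array of pooled EBs. The remaining array, of adult skin fibroblasts, entered the fit and is quoted beside some genes for reference. The ES cells grew on mouse embryonic fibroblast feeders that had been made unable to divide, in medium with serum and 4 ng/ml FGF2, and colonies of good shape were lifted by hand. The EBs were made by withdrawing FGF2. The labels describe their 30 days in different ways, in one field as culture in dishes that prevent attachment and in another as a week in suspension followed by gelatin-coated dishes, and the ES line or lines they came from are not used here. No group was genetically altered.

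ES cells are pluripotent: they divide without limit and can form derivatives of all germ layers. A small set of transcription factors with OCT4 (POU5F1), SOX2 and NANOG at its centre holds this state, and FGF and Activin or Nodal signals sustain it in primate ES cells. When ES cells are grown as aggregates without these signals they form EBs, in which several lineages arise side by side and unevenly, so that an EB sample is a mixture of cell types. In such bulk RNA, fewer cells of a type and less RNA per cell cannot be told apart.

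Levels below are log2(signal + 16), and differences are ES minus EB on that scale with their standard error (SE), so that a positive difference means higher in ES cells. Where 5 levels are given for a gene they stand in the order ORMES6, ORMES7, ORMES9, ORMES10 and ORMES13. A gene is called where the limma p-value, adjusted by Benjamini-Hochberg over 19751 genes, is below 0.05. The EB array was alone in its group and was assumed to vary as the lines do, so the p-values measure the spread between lines and not between EB cultures.

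A total of 545 genes were called higher in the ES lines (2.76% of those tested) and 572 lower (2.9%), together 5.66%. At the level of 52763 probe sets, 481 were called higher (0.912%) and 805 lower (1.53%), together 2.44%. The calls on the EB side were the larger ones. The median difference was 1.64 among genes higher in ES cells and -2.17 among genes lower, and differences over 16-fold numbered 9 and 42. The EB level lay outside the range of all 7 ES arrays for each of the 1117 called genes, against 42.6% of all genes. That count uses the same values as the calls, so it is not a separate check of them. Of the genes called higher in ES cells, 515 had a deposited detection p below 0.05 on all 5 ES arrays that carry one. Of the genes called lower, 282 did, and 153 were detected on none of these arrays. The authors' deposited table comes from the same arrays and is no separate check either. In it, the ratios of all 7 ES arrays to the EB array lay on the called side for 544 of the genes called higher and 571 of those called lower. The fibroblast level lay on the EB side of the ES range for 485 and 337 of them.

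**Figure D1:**
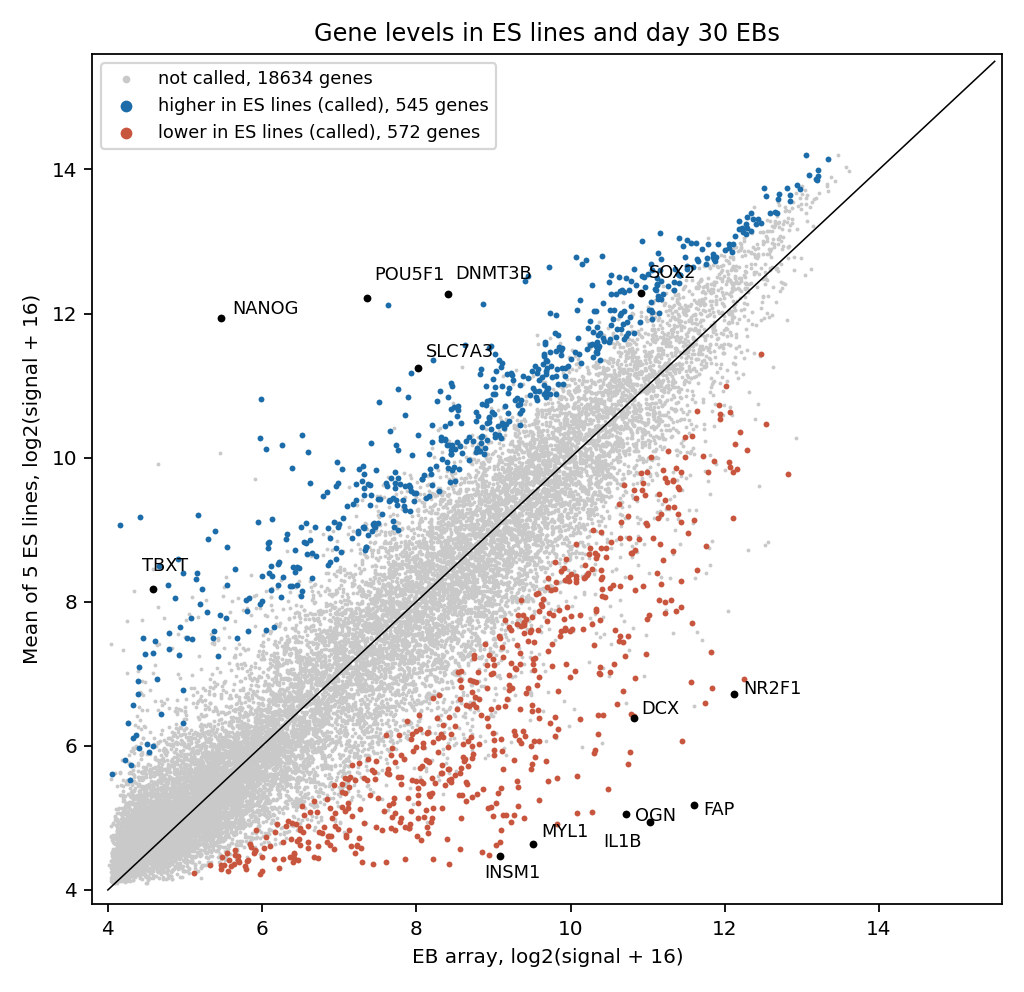
Each point is a gene, with its level on the EB array on the x axis and its mean level over the 5 ES lines on the y axis, both as log2(signal + 16); the line marks equal levels, blue points are the 545 genes called higher in ES lines and red points the 572 called lower. NANOG lies farthest above the line, while genes such as INSM1, MYL1, OGN and IL1B sit near the lower edge of the ES axis and far along the EB axis.

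Technical values also differed between the groups. Every array had been scaled to a trimmed mean signal of 200. The hybridisation control RNAs, which are added to each sample in fixed amounts, had a geometric mean signal of 506 on the EB array, of 594 and 571 on ORMES6 A and B, and of 878 to 1157 on the other ES arrays. The ratio of 3' to 5' signal for actin, a measure of RNA integrity and labelling, was 7.15 on the EB array and 22.7 to 66.2 on the ES arrays. With the control RNA level as a covariate in the fit over 5 lines, 3 genes were called in each direction; in that fit the EB value lies below those of all lines and 1 fewer degree of freedom is left. With the same covariate over the 7 ES arrays and the line as a random block, a fit added after the data were seen, 551 and 785 genes were called, and 748 of the 1117 were shared. There too the EB value of 506 lies below that of every ES array, the lowest being 571 on ORMES6 B. The part of these technical differences in the results was not tested beyond these fits.

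Fewer genes were called when a line was left out, 452 without ORMES10 being the fewest. All 1117 kept their direction in each of the 8 fits that left out a line or an ORMES6 array. That outcome was fixed in advance, because the EB level of each called gene lay outside the range of all 7 ES arrays. All 8 of those fits called 406 of the 1117. Below, a gene whose call was lost in such a fit is named at the end of its paragraph with its highest adjusted p over those fits. Taking the mean of a gene's probe sets instead shared 618 of the 1117 calls, and 45 named genes lost theirs. Values from that fit are given for some of them. The gene symbols are mostly those of human orthologues, and roles are given as background.

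The labels were checked first against marker genes. POU5F1 read 12.56, 12.47, 12.14, 11.90 and 12.01 in the lines and 7.36 in the EBs. NANOG read 11.98, 12.25, 12.09, 12.11 and 11.27 in the lines and 5.47 in the EBs. LIN28A, an RNA-binding protein that blocks maturation of let-7 microRNAs, read 12.02, 11.95, 12.65, 12.21 and 11.75 in the lines and 7.63 in the EBs. All 3 lay close together in the lines and were far lower in the EBs, although POU5F1 and LIN28A on the EB array were still above the fibroblast levels of 5.16 and 4.26. The differences were 6.47 ± 0.37 (SE) for NANOG, 4.86 ± 0.31 for POU5F1 and 4.49 ± 0.34 for LIN28A, with adjusted p of 0.000746, 0.000746 and 0.00139. The authors' deposited table gives log2 ratios of single ES arrays to the EB array of 6 to 7.4 for NANOG, with a median of 7.

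Of 32 measured genes in the list of pluripotency factors, 13 were called higher in the ES lines and 0 lower, and the median difference was 1.39 against 0.04 over all genes. NFE2L3 (4.82 ± 0.59), the ES cell chromatin protein DPPA4 (4.76 ± 0.76) and VRTN (4.03 ± 0.34) were among them. SOX2 was the smallest of the 13 calls, at 12.22, 12.39, 12.01, 12.61 and 12.20 in the lines and 10.92 in the EBs, a difference of 1.37 ± 0.27 (adjusted p = 0.0276). SOX2 is also a factor of neural progenitors, and its fibroblast level was 4.21. The SOX2 call was lost without ORMES7, ORMES10 or ORMES6 C, with a highest adjusted p of 0.0589. It was also lost with the mean of its 3 probe sets (0.44, adjusted p = 0.431) and with the control RNA covariate over arrays (1.10, adjusted p = 0.0729).

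Signalling genes of the Nodal and FGF pathways were among the calls on the ES side. LEFTY2, a Nodal target that inhibits the pathway, was higher in ES lines by 4.31 ± 0.80, FOXH1, the DNA-binding partner of SMAD2, by 2.37 ± 0.43, and follistatin (FST), which binds activin, by 2.19 ± 0.36. The other calls of the 26 Nodal and TGF-beta genes went the opposite way, namely the ligands INHBA (-4.02 ± 0.96) and TGFB2 (-3.50 ± 0.63). Of 24 FGF and ERK feedback genes, FGF12 (2.68 ± 0.35) and the ERK phosphatase DUSP6 (1.93 ± 0.34) were higher in ES lines and 0 were lower. With the mean of probe sets FGF12 differed by 0.76 (adjusted p = 0.226) and DUSP6 by 1.38 (adjusted p = 0.0969), and both calls were lost. For WNT signalling, 3 of 38 genes were higher in ES lines, the transcription factors TCF7 (3.03 ± 0.48) and TCF7L1 (1.27 ± 0.30) and the secreted SFRP1 (1.28 ± 0.21), and the secreted DKK3 (-2.72 ± 0.36) and SFRP4 (-2.61 ± 0.43) were lower. The 23 BMP genes included 3 called lower in ES lines, the BMP antagonist GREM1 (-3.89 ± 0.89), the receptor BMPR2 (-1.58 ± 0.28) and the target ID1 (-1.35 ± 0.30), with 0 called higher and a list median of -1.04. HEY2, a Notch target, was higher in ES lines by 2.57 ± 0.41 and BOC, a Hedgehog co-receptor, was lower (-3.29 ± 0.74). HEY2 was the 1 call among 18 Notch genes (5.56%) and BOC the 1 call among 13 Hedgehog genes (7.69%). A list with 1 call does not show a shift of the pathway. Leaving out a line or ORMES6 C lost the calls of INHBA, GREM1, BMPR2, ID1, TCF7L1 and BOC, whose highest adjusted p were 0.082, 0.0677, 0.0503, 0.0836, 0.0793 and 0.0776, and reduced the BMP calls to 1 without ORMES6, ORMES7, ORMES9 or ORMES6 C.

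Of the genes of the primitive streak, where mesoderm and endoderm first form, 2 were called on the ES side. TBXT (brachyury), which marks the streak, read 7.51, 7.61, 8.41, 8.22 and 9.11 in the lines and 4.59 in the EBs, where it was near the fibroblast level of 4.34. Its difference was 3.58 ± 0.59 (adjusted p = 0.0164). EOMES, a T-box factor of the streak and endoderm, was higher by 1.67 ± 0.39, and FOXC1, a factor of later mesoderm, was lower (-2.63 ± 0.57). The other 15 of 18 genes on this list were not called. EOMES and FOXC1 lost their calls in 5 and 4 of the leave-one-out fits, with highest adjusted p of 0.0829 and 0.0823.

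Some epithelial genes were higher in ES cells. Of 33 genes of epithelial adhesion and the ES cell surface, 31 had a difference above 0, 5 were called higher and 0 lower. They included the tight junction genes CLDN10 (3.17 ± 0.57) and CLDN6 (2.43 ± 0.45), the splicing regulator ESRP2 (2.29 ± 0.46) and the laminin receptor subunit ITGA6 (2.28 ± 0.30). LAMA5, a laminin chain of epithelial basement membranes, was higher by 1.85 ± 0.40. With the control RNA covariate over arrays LAMA5 differed by 1.12, and its call was lost. The list's median was 1.13, and 0.30 with the control RNA covariate and the line as a random block. It differed between the lines, at 0.38 in ORMES6 and 0.32 in ORMES7 against 1.29 to 1.64 in ORMES9, ORMES10 and ORMES13. The list held 3 calls without ORMES9 and 1 without ORMES10; CLDN10, CLDN6, ESRP2 and LAMA5 had highest adjusted p of 0.0525, 0.0503, 0.0633 and 0.0704.

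Genes of proliferation were higher in ES cells. Of 46 genes of mitosis and cyclins 19 were called higher and 0 lower, and of 42 genes of DNA replication licensing and S phase 12 were higher and 0 lower, with median differences of 1.29 and 0.87. The proliferation antigen MKI67 was higher by 2.05 ± 0.34, the kinetochore protein CENPF by 2.06 ± 0.32, the replication initiator MCM10 by 2.33 ± 0.25 and the helicase subunit MCM5 by 2.54 ± 0.32. The EB levels of these genes were not low: MKI67 read 8.53, CENPF 10.12 and MCM5 10.20 on the EB array, against 7.18, 9.44 and 8.69 in the fibroblasts. With the mean of probe sets MKI67 differed by 1.09 and MCM10 by 1.53, and both calls were lost. Inhibitors of the cycle went the other way. CDKN1A (p21) read 7.59, 7.63, 8.11, 8.43 and 8.39 in the lines and 11.31 in the EBs, a difference of -3.27 ± 0.40 (adjusted p = 0.00673), and CDKN1B (p27) differed by -1.84 ± 0.36 and the antiproliferative BTG1 by -1.40 ± 0.32, the 3 calls among 26 cyclin-dependent kinase inhibitors and p53 targets. The mitosis list held 11 calls without ORMES10 and the inhibitor list 1 without ORMES7, ORMES9 or ORMES10; CDKN1B and BTG1 had highest adjusted p of 0.0619 and 0.0869.

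DNA repair, chromatin and the machinery of ribosome assembly followed the same direction. Of 34 DNA repair genes 6 were called higher in ES lines and 0 lower, among them the recombination genes RAD54L (1.79 ± 0.34), BRCA1 (1.66 ± 0.30) and BARD1 (1.30 ± 0.26) and the uracil glycosylase UNG (1.34 ± 0.23). Of 39 genes of DNA methylation and chromatin 10 were higher and 0 lower, led by the de novo methyltransferase DNMT3B, which read 12.29, 11.97, 12.49, 12.54 and 12.08 in the lines and 8.40 in the EBs (3.87 ± 0.28, adjusted p = 0.00139). Of 25 genes of ribosome biogenesis and RNA processing 9 were higher and 0 lower, and 24 of 25 had a difference above 0. The nucleolar proteins DKC1 (1.64 ± 0.18), NOLC1 (1.66 ± 0.22) and NOP56 (1.44 ± 0.26) and the RNA polymerase I subunit POLR1B (1.44 ± 0.27) were among the 9. With the mean of probe sets DKC1 differed by 0.99, NOP56 by 0.80 and POLR1B by 0.93, and these calls were lost. The calls of BRCA1 (0.82) and BARD1 (1.03) were lost in that fit too. For cytosolic ribosomal proteins, 3 of 37 were called higher and 0 lower, a share of 8.11% against 2.76% of all genes. Their median was 0.41, and 0.09 with the control RNA covariate and the line as a random block. In that fit the chromatin list's median was 0.27, against 0.67 in the main fit. Medians of the repair and ribosome biogenesis lists were 0.86 and 0.93 in that fit, against 0.79 and 0.77. Without ORMES10 the repair list held 1 call and the ribosome biogenesis list 3, and the ribosomal protein list held 0 calls without ORMES7, ORMES9, ORMES10 or ORMES6 C; RAD54L, BRCA1, BARD1, NOP56 and POLR1B had highest adjusted p of 0.0596, 0.0568, 0.0626, 0.0576 and 0.0614, each without ORMES10.

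Some enzymes of amino acid metabolism were higher in ES cells. Of 24 genes of serine, one-carbon and amino acid synthesis, 4 were called higher and 0 lower: CTH (2.07 ± 0.42) and CBS (1.78 ± 0.26) of the transsulfuration pathway, the folate enzyme MTHFD1 (1.90 ± 0.44) and asparagine synthetase ASNS (1.37 ± 0.31). Outside the lists, and chosen after their values were seen, the amino acid transporters SLC7A3 (3.23 ± 0.43) and SLC7A5 (2.93 ± 0.51) were also higher. With the control RNA covariate over arrays SLC7A5 differed by 1.62, and its call was lost. SLC7A3, which carries cationic amino acids, read 10.58, 10.94, 11.68, 11.57 and 11.48 in the lines and 8.02 in the EBs. CTH, MTHFD1 and ASNS had highest adjusted p of 0.0711, 0.087 and 0.0843 in the leave-one-out fits, and the list held 1 call without ORMES9 or ORMES10.

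Glycolytic genes were called in both directions. Of 23 glycolysis genes, 4 were called lower in ES cells and 1 higher. Enolase 2 (ENO2), the neuronal enolase, read 6.71, 7.13, 7.66, 9.04 and 7.98 in the lines and 11.58 in the EBs, a difference of -3.87 ± 0.73. Aldolase C (ALDOC), the brain form, differed by -2.12 ± 0.33, pyruvate kinase (PKM) by -1.95 ± 0.28 and GPI by -1.34 ± 0.28. With the mean of probe sets PKM differed by -0.35 (adjusted p = 0.559) and GPI by -0.66 (adjusted p = 0.219), and both calls were lost. LDHB, the lactate dehydrogenase subunit, was the gene called higher in ES cells, by 0.78 ± 0.18. Of 27 respiratory chain genes, 1 was called higher and 0 lower, a share of 3.70% against 2.76% of all genes. The actin gene ACTB, often used as a reference, was itself higher in ES cells by 0.85 ± 0.18. It was the 1 call among 14 common reference genes, a share of 7.14% against 2.76% of all genes. With the control RNA covariate over arrays ACTB differed by 0.30 (adjusted p = 0.417) and LDHB by 0.31 (adjusted p = 0.387), and both calls were lost. Quantile normalization also lost both. The actin 3' to 5' ratio differed between the groups, and its part in the ACTB difference was not tested. ENO2, GPI, LDHB and ACTB had highest adjusted p of 0.0523, 0.0667, 0.117 and 0.114, and the list held 2 lower calls without ORMES9.

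**Figure D2:**
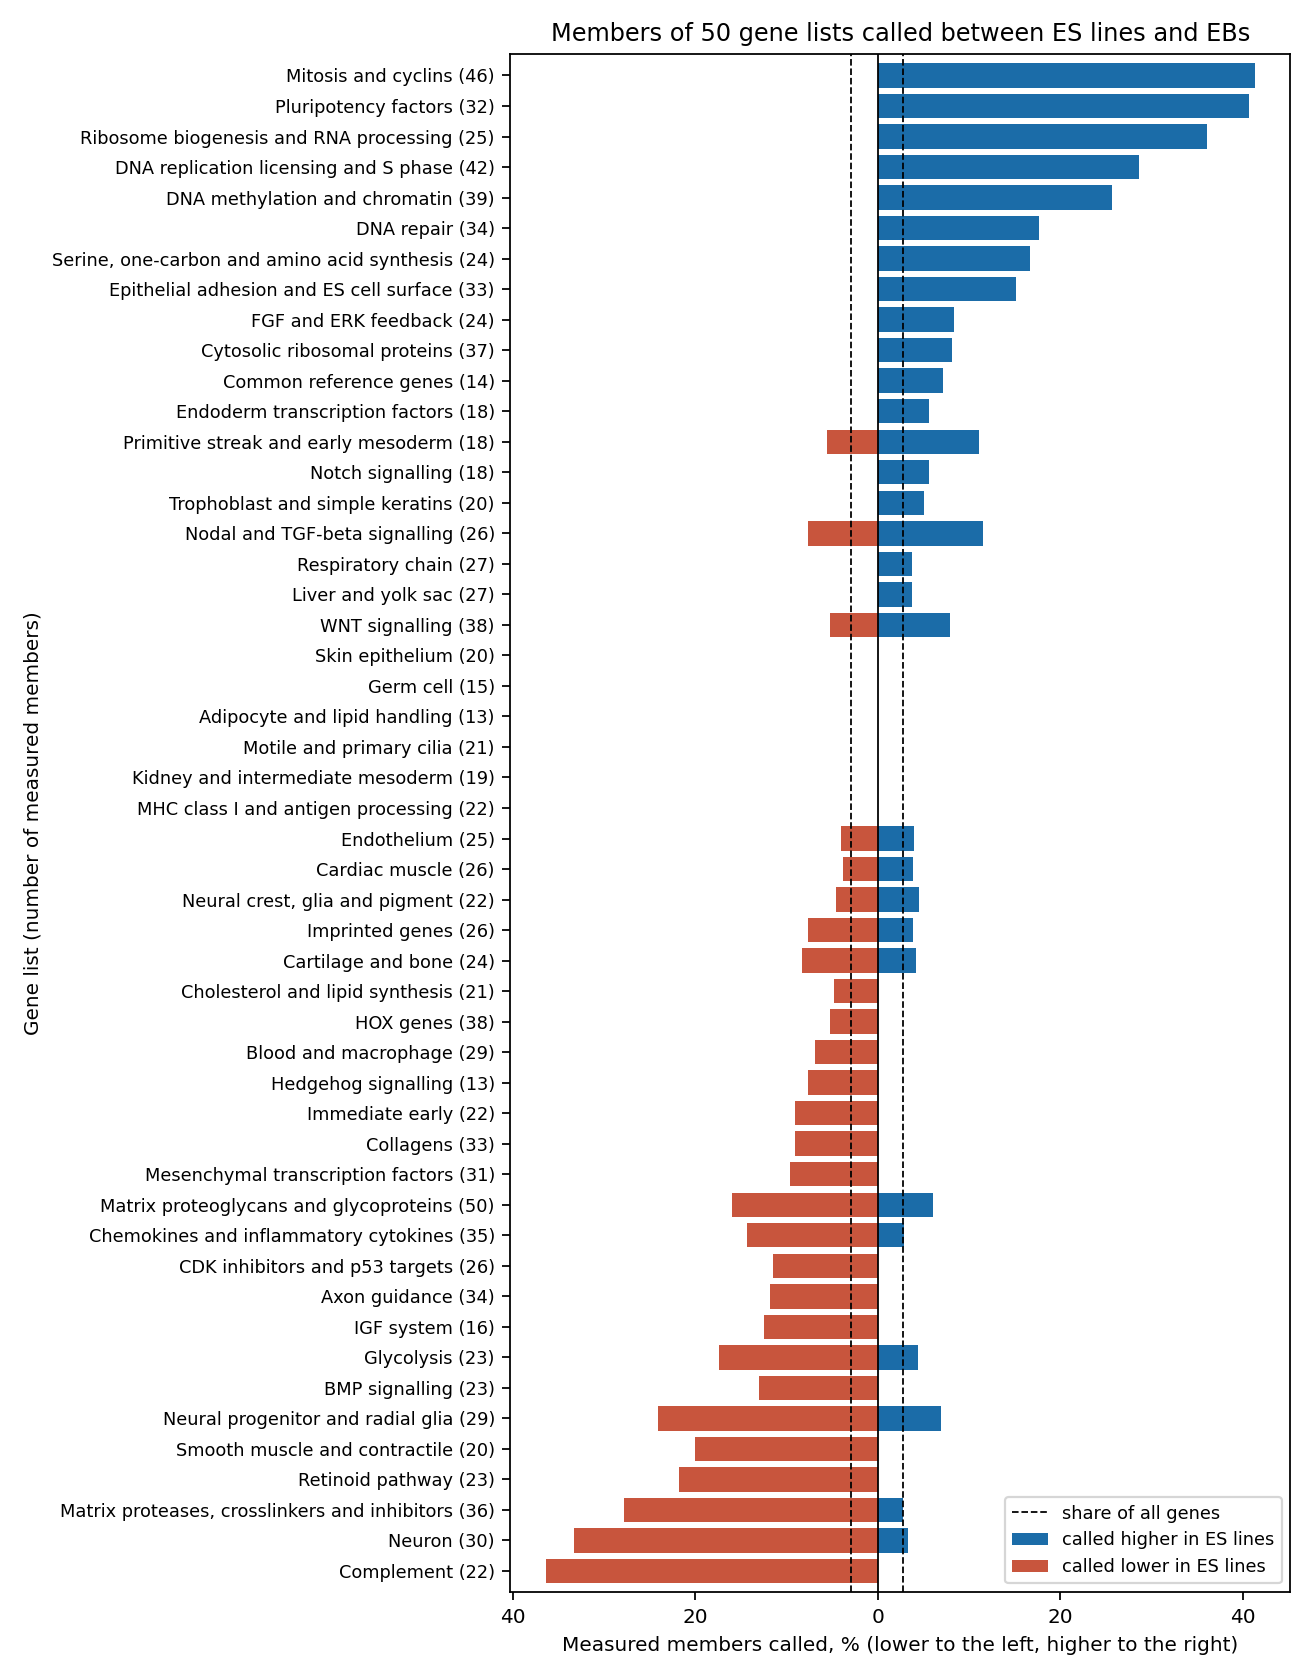
Bars show, for each of 50 gene lists, the percentage of measured members called higher in ES lines (blue, to the right) and lower (red, to the left); the number of measured members is in parentheses and dashed lines mark the shares of all genes, 2.76% and 2.9%. Cell cycle, pluripotency and ribosome biogenesis lists stand at the top, and complement, neuron and matrix protease lists at the bottom.

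On the EB side, neural genes formed 1 of the main groups. Of 30 neuronal genes 10 were called lower in ES cells and 1 higher, and the list's median difference was -1.31, with medians of -1.92 to -1.18 in the separate lines. Doublecortin (DCX), a microtubule protein of migrating young neurons, read 5.40, 6.70, 6.34, 6.64 and 6.86 in the lines and 10.82 in the EBs. STMN4, a neuronal stathmin, read 4.39, 4.39, 5.00, 4.90 and 4.45 in the lines and 9.03 in the EBs. INSM1, a transcription factor of newly born neurons and endocrine cells, read 4.51, 4.38, 4.28, 4.81 and 4.38 in the lines and 9.08 in the EBs. In ES cells and fibroblasts, STMN4 and INSM1 lay near the lowest levels on the arrays, and no ES line came near the EB level for any of the 3. The differences were -4.43 ± 0.55 for DCX, -4.41 ± 0.35 for STMN4 and -4.61 ± 0.30 for INSM1, with adjusted p of 0.00704, 0.0015 and 0.000746. The RNA-binding protein ELAVL4 (-3.74 ± 0.47), the vesicle protein SYT4 (-3.46 ± 0.54) and the dendritic protein MAP2 (-3.20 ± 0.54) were also lower in ES cells.

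Genes of synaptic transmission were included, chosen after their values were seen. The AMPA receptor subunit GRIA2 read 5.39, 4.33, 4.47, 4.44 and 4.69 in the lines and 9.08 in the EBs (-4.42 ± 0.42, adjusted p = 0.00254). SLC17A6, which loads glutamate into vesicles, differed by -3.27 ± 0.50. The exception on the neuronal list was SYT1, a calcium sensor of vesicle release, whose levels of 10.77 to 11.60 in the lines exceeded the EB level of 9.18 (1.99 ± 0.36); its call was lost without ORMES10 (adjusted p = 0.0521).

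Genes of neural progenitors were called in both directions. Of 29 genes of neural progenitors and radial glia, 7 were called lower in ES lines and 2 higher. POU3F2, a POU factor of the developing brain, read 4.54, 4.47, 4.36, 4.89 and 4.36 in the lines and 8.85 in the EBs (-4.32 ± 0.30, adjusted p = 0.00122), and its relative POU3F3 differed by -3.80 ± 0.42. FABP7, a fatty acid binding protein of radial glia, read 7.70, 6.36, 5.55, 5.46 and 5.24 in the lines and 11.45 in the EBs (-5.39 ± 0.84, adjusted p = 0.0137), so that ORMES6 was the line nearest to the EBs. ORMES6 was also nearest for ZIC1, a zinc finger factor of the dorsal neural tube, at 9.25, 8.07, 6.02, 6.81 and 6.36 in the lines and 11.83 in the EBs (-4.52 ± 1.06). SOX1, an early neural factor chosen after its values were seen, differed by -2.67 ± 0.53. The markers PAX6 (-3.17 ± 0.80, adjusted p = 0.0574) and TUBB3 (-2.57 ± 0.66, adjusted p = 0.0609) did not pass the test, although 1 further probe set of TUBB3 was called lower in ES lines. The genes called higher in ES cells were ZIC2 (0.85 ± 0.20) and the phosphatase PTPRZ1 (2.17 ± 0.46), and the intermediate filament NES, at 11.91 to 12.64 in the lines and 11.32 in the EBs, was not called. Without ORMES10 the list held 3 lower calls; ZIC1, SOX1, ZIC2 and PTPRZ1 had highest adjusted p of 0.098, 0.065, 0.0975 and 0.0726.

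Guidance molecules and receptors were found on the same side. Of 34 axon guidance genes 4 were called lower in ES cells and 0 higher. SLIT1, a secreted repellent of axons, read 4.84, 4.45, 4.55, 5.82 and 5.05 in the lines and 9.23 in the EBs (-4.28 ± 0.50, adjusted p = 0.00539). The semaphorins SEMA3D (-3.52 ± 0.58) and SEMA3C (-3.51 ± 0.38) and the ephrin receptor EPHA3 (-3.49 ± 0.78) were the others. With the mean of probe sets SEMA3D differed by -1.04 and EPHA3 by -1.035, and both calls were lost. SEMA3C was higher still in the fibroblasts, at 12.87 against 11.43 in the EBs. The neurotrophin receptor NTRK2 differed by -4.51 ± 0.68, and S100B, a glial calcium-binding protein, by -2.29 ± 0.28. The EPHA3 call was lost in 5 of the leave-one-out fits, with a highest adjusted p of 0.0857.

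Some retinoid pathway genes were higher in the EBs. Retinoic acid is a vitamin A derivative that gives embryonic tissue its position along the head-to-tail axis, in part through the HOX genes. Of 23 retinoid pathway genes 5 were called lower in ES lines and 0 higher, with a list median of -1.11. NR2F1 (COUP-TFI), an orphan nuclear receptor induced by retinoic acid, read 5.24, 6.03, 6.87, 7.66 and 7.78 in the lines and 12.12 in the EBs (-5.40 ± 0.87, adjusted p = 0.0154). MEIS1, a cofactor of HOX proteins, read 5.08, 4.17, 6.05, 6.76 and 7.51 in the lines and 10.77 in the EBs (-4.85 ± 1.06). In both genes ORMES10 and ORMES13 were the lines nearest to the EBs, still more than 3 log2 units below them. The retinoic acid binding protein CRABP1 differed by -3.38 ± 0.72 and the receptor RARB, itself a retinoic acid target, by -2.52 ± 0.52. RARB was highest in ORMES9 among the lines, at 7.32. With the mean of probe sets RARB differed by -1.01, and its call was lost. The list held 1 call without ORMES10 and 2 without ORMES6 or ORMES9; MEIS1, CRABP1 and RARB had highest adjusted p of 0.0713, 0.0737 and 0.0687.

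Of 38 HOX genes 2 were called, both lower in ES cells, a share of 5.26% against 2.9% of all genes. The list nevertheless had the lowest median of the 50, -1.49, and 31 of its 38 members had a difference below 0. HOXA4 read 4.69, 5.10, 5.40, 4.99 and 4.15 in the lines and 7.91 in the EBs (-3.04 ± 0.45). HOXA7 read 4.27, 4.39, 4.46, 4.35 and 6.0 in the lines and 8.06 in the EBs (-3.37 ± 0.61), ORMES13 standing apart from the other 4 lines. The list's median was -2.32 in ORMES7 and -0.65 in ORMES13. The HOX list held between 1 and 7 calls in the leave-one-out fits, and HOXA7 had a highest adjusted p of 0.0566.

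**Figure D3:**
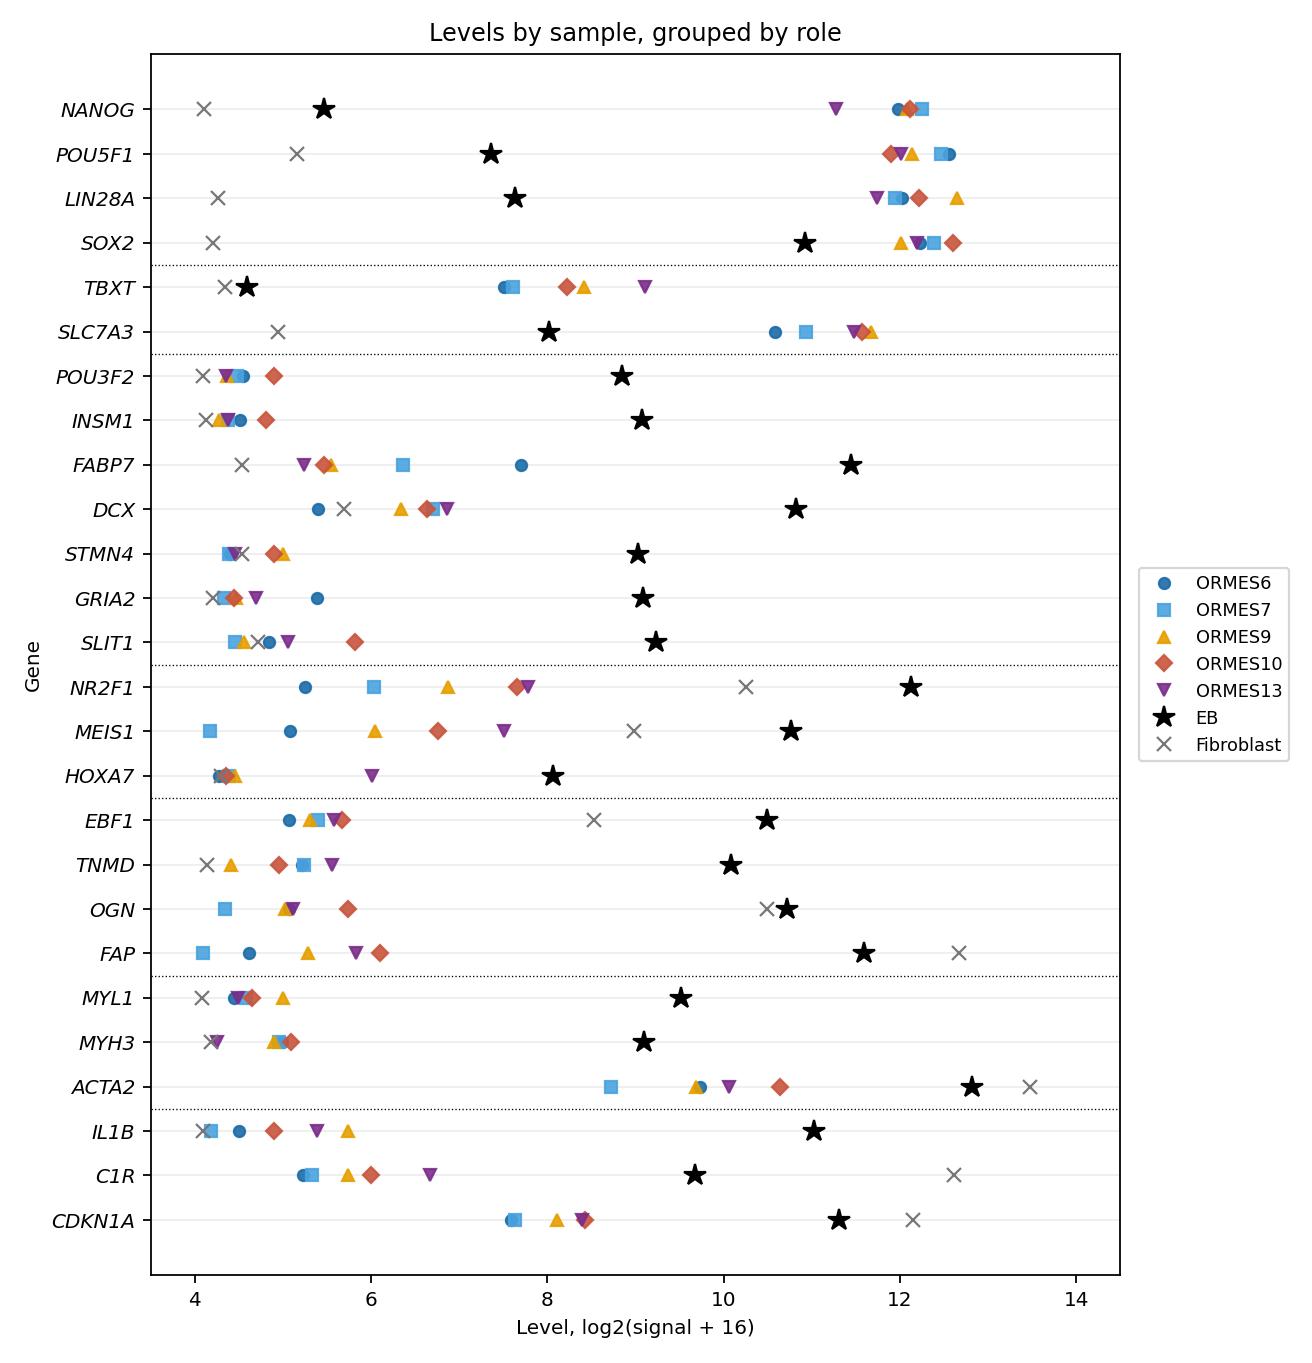
Levels of 26 genes as log2(signal + 16) on the x axis, with 1 symbol per ES line, a star for the EB array and a cross for the fibroblast array; dotted lines separate pluripotency, streak and transporter, neural, retinoid and HOX, mesenchymal, muscle, and inflammatory and cell cycle inhibitor genes. The EB star lies to the left of all 5 lines for the first 6 genes and to the right of all 5 for the other 20, with the fibroblasts near or above the EBs for OGN and FAP and at the low end for the neural genes and MYL1.

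Mesenchymal and connective tissue genes were the other large group on the EB side. Mesenchyme is the loose embryonic tissue that gives rise to fibroblasts, tendon, cartilage and bone. FAP, a cell surface protease of activated fibroblasts, showed the largest difference in this direction, at 4.62, 4.09, 5.29, 6.10 and 5.83 in the lines and 11.60 in the EBs (-6.41 ± 0.71, adjusted p = 0.00453). Osteoglycin (OGN), a small matrix proteoglycan, read 5.07, 4.34, 5.02, 5.74 and 5.12 in the lines and 10.72 in the EBs (-5.66 ± 0.50). EBF1, a transcription factor of mesenchymal and B cell lineages, read 5.07, 5.40, 5.31, 5.67 and 5.58 in the lines and 10.49 in the EBs (-5.08 ± 0.38). For all 3 genes the lines stayed within about 2 log2 units of each other and far from the EBs, and FAP and OGN were also high in the fibroblasts, at 12.67 and 10.49. Tenomodulin (TNMD), a marker of tendon, read 4.41 to 5.55 in the lines, 10.09 in the EBs and 4.14 in the fibroblasts (-5.02 ± 0.44, adjusted p = 0.00202), so here the EBs alone were high. GAS2, a growth arrest protein of the cytoskeleton, differed by -5.0 ± 0.39.

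Among 31 mesenchymal transcription factors, 3 were called lower in ES cells, EBF1 and TWIST2 (-2.75 ± 0.46) among them, and 0 were called higher. PRRX1, a limb mesenchyme factor, had a difference of -3.70 ± 1.06 and was not called (adjusted p = 0.0835), and its line levels ranged from 4.91 to 8.03. Of 24 cartilage and bone genes, OGN and the parathyroid hormone receptor PTH1R (-2.23 ± 0.53) were lower in ES cells, and RUNX2, the master factor of bone, was higher, at 8.07 to 9.25 in the lines against 6.09 in the EBs (2.75 ± 0.45, adjusted p = 0.0162). The list's shares were 8.33% lower and 4.17% higher, against 2.9% and 2.76% of all genes. RUNX2 had a detection p below 0.05 in 1 line, 1 of its 5 probe sets was called, and the authors' deposited table gives a median log2 ratio of 1.2. Its call was lost with the mean of its probe sets (0.48, adjusted p = 0.486) and with the control RNA covariate over arrays (1.42, adjusted p = 0.0755). The transcription factor list held 8 calls without ORMES13; PTH1R had a highest adjusted p of 0.101.

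Genes of the extracellular matrix, which surrounds connective tissue cells, were called mostly on the EB side. Of 36 matrix proteases, crosslinkers and inhibitors 10 were called lower in ES cells and 1 higher, of 50 matrix proteoglycans and glycoproteins 8 lower and 3 higher, and of 33 collagens 3 lower and 0 higher. Lysyl oxidase (LOX), which crosslinks collagen and elastin, read 5.98, 5.83, 6.24, 7.65 and 8.29 in the lines and 11.84 in the EBs (-5.04 ± 0.88). The elastic fibre protein MFAP4 read 6.33 to 7.43 in the lines and 11.56 in the EBs (-4.68 ± 0.43, adjusted p = 0.00209). COL8A1 (-5.33 ± 0.90), COL12A1 (-3.18 ± 0.58) and COL16A1 (-2.94 ± 0.53) were the called collagens, none of them a main fibrillar chain. The glycoproteins tenascin C (TNC, -3.99 ± 0.77), EMILIN1 (-3.46 ± 0.47) and fibrillin 1 (FBN1, -2.47 ± 0.57), the stromelysin MMP10 (-3.82 ± 0.55) and cathepsin K (CTSK, -3.22 ± 0.50), a collagen-degrading protease, were lower in ES cells as well. With the mean of probe sets TNC differed by -1.39, and its call was lost. The plasminogen activator PLAU was the protease higher in ES cells, by 2.39 ± 0.30. Of 16 genes of the IGF system, the binding proteins IGFBP2 (-2.32 ± 0.41) and IGFBP6 (-1.78 ± 0.38) were called lower. Shares called lower were 12.5% for the IGF system and 9.09% for collagens, against 2.9% of all genes. Without ORMES10 the glycoprotein list held 4 lower and 0 higher calls, and without ORMES13 the collagen list held 5; TNC, FBN1, IGFBP2 and IGFBP6 had highest adjusted p of 0.0592, 0.0837, 0.0537 and 0.081.

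The main fibrillar collagens and their partners were not called, and the ES lines differed widely from each other. Lumican (LUM), a collagen-binding proteoglycan, read 4.70 in ORMES6 and 4.98 in ORMES7, then 10.46, 11.40 and 12.37 in ORMES9, ORMES10 and ORMES13, against 12.53 in the EBs. Decorin (DCN) read 5.01, 4.19, 7.94, 9.36 and 11.23 in the lines and 10.98 in the EBs, so that ORMES13 was slightly above the EBs. COL3A1 read 7.02, 8.34, 11.06, 12.22 and 12.74 in the lines and 12.92 in the EBs. In these 3 genes ORMES6 and ORMES7 were low and ORMES13 was at or near the EB level, and the differences were -3.74 ± 2.78, -3.43 ± 2.25 and -2.64 ± 1.90 (adjusted p = 0.499, 0.436 and 0.482). COL1A1 ran from 8.60 to 11.61 and COL1A2 from 5.94 to 11.21, against 12.40 and 12.30 in the EBs, and 1 further probe set of COL1A1 was called lower in ES lines. In ORMES13, the called genes FAP, OGN and EBF1 read 5.83, 5.12 and 5.58, far below the EBs. FAP nevertheless read higher in ORMES9, ORMES10 and ORMES13 than in ORMES6 and ORMES7, and had a detection p below 0.05 in 3 lines, and LOX and PRRX1 were highest in ORMES10 and ORMES13. The part of feeder cells, which are mouse fibroblasts, and of differentiated cells in the picked colonies was not tested.

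**Figure D4:**
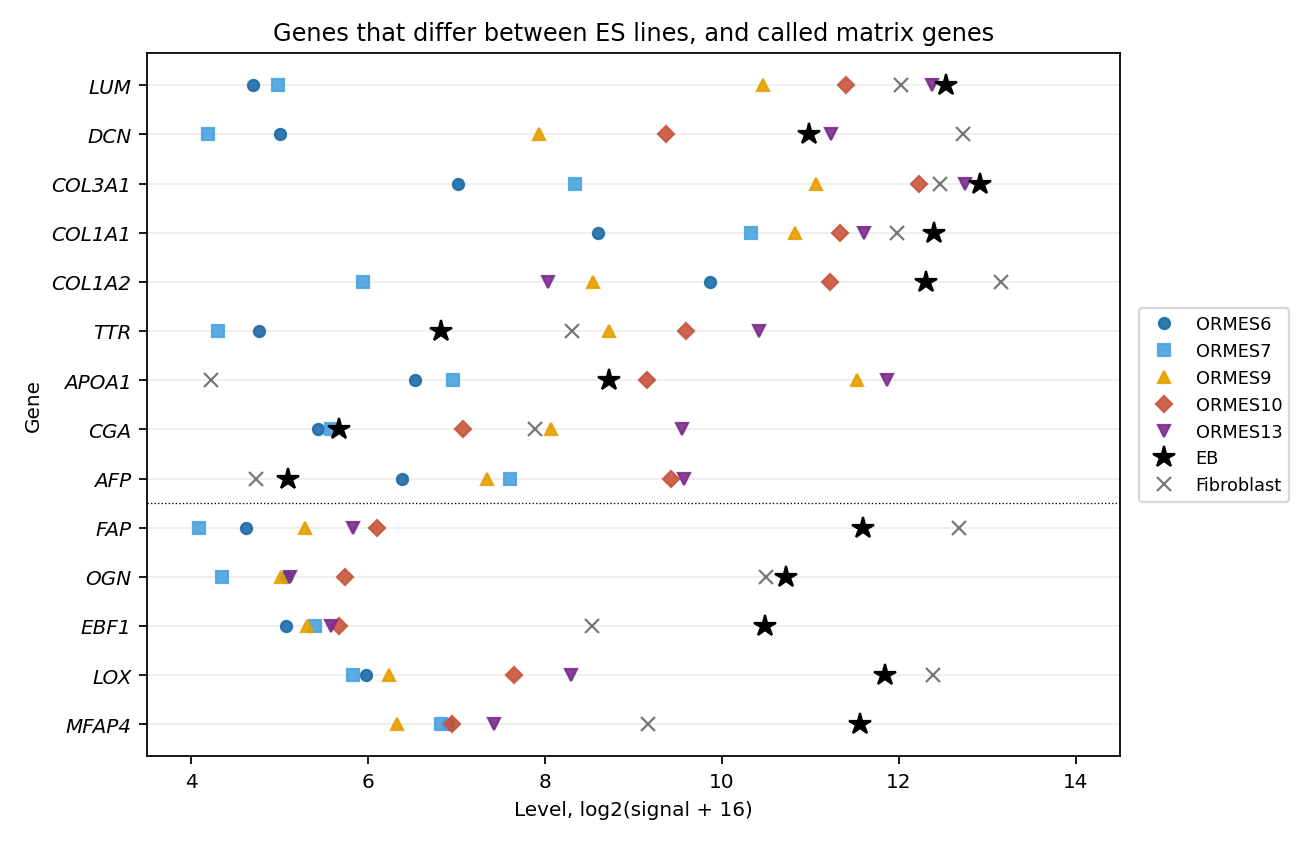
Levels as log2(signal + 16) on the x axis for 9 genes whose ES lines spread widely (above the dotted line) and 5 matrix or mesenchymal genes called lower in ES lines (below it), with 1 symbol per line, a star for the EB array and a cross for the fibroblasts. LUM, DCN and COL3A1 run from ORMES6 and ORMES7 at the low end to ORMES13 at the EB level, while FAP, OGN and EBF1 stay at or below 6.10 in every line.

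Some muscle genes were higher in the EBs. MYL1, a myosin light chain of fast skeletal muscle, read 4.44, 4.58, 5.00, 4.64 and 4.49 in the lines, 9.52 in the EBs and 4.08 in the fibroblasts (-4.88 ± 0.32, adjusted p = 0.000746). MYH3, the embryonic myosin heavy chain, read 4.99, 4.95, 4.90, 5.09 and 4.25 in the lines, 9.1 in the EBs and 4.19 in the fibroblasts (-4.26 ± 0.38), and TNNI1, the slow skeletal troponin I, differed by -2.73 ± 0.48; both were chosen after their values were seen. MYL1 and MYH3 were thus high in the EBs alone among the 3 kinds of sample. Of 20 smooth muscle and contractile genes, 4 were called lower in ES cells and 0 higher: smooth muscle actin ACTA2 (-3.05 ± 0.57), SYNPO2 (-2.96 ± 0.52), desmin (DES, -2.13 ± 0.35) and TPM2 (-2.11 ± 0.40). ACTA2 was at 12.82 in the EBs and 13.48 in the fibroblasts. With the mean of probe sets ACTA2 differed by -0.99 (adjusted p = 0.212) and TPM2 by -0.96 (adjusted p = 0.1), and both calls were lost. Without ORMES10 the list held 2 calls, and TNNI1, ACTA2, SYNPO2 and TPM2 had highest adjusted p of 0.0514, 0.0519, 0.0503 and 0.0594.

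Of 26 cardiac genes, CASQ2, a calcium store protein, was lower in ES cells (-3.04 ± 0.50) and the peptide hormone gene NPPB was higher (1.75 ± 0.38), a share of 3.85% in each direction and close to those of all genes, 2.9% and 2.76%. The heart myosins MYH6 and MYH7 read 5.34 and 5.20 in the EBs, within or close to the ES levels of 4.64 to 4.94 and 4.91 to 5.52, and neither gene was called, although a further probe set of MYH6 was called lower in ES lines. Cardiac troponin T (TNNT2) read 7.86 in the EBs and 5.46 to 7.97 in the lines, and ACTC1, an actin of heart and embryonic skeletal muscle, 10.51 in the EBs and 8.48 to 11.75 in the lines. For both the EB level lay inside the range of the lines. NPPB had a highest adjusted p of 0.0782.

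Several inflammatory and complement genes were higher in the EBs. Of 22 complement genes 8 were called lower in ES cells and 0 higher, and of 35 chemokine and cytokine genes 5 were lower and 1 higher. Interleukin 1 beta (IL1B), a cytokine best known from macrophages, read 4.50, 4.18, 5.74, 4.90 and 5.38 in the lines, 11.03 in the EBs and 4.10 in the fibroblasts (-6.08 ± 0.57, adjusted p = 0.00242). The pentraxin PTX3 differed by -5.20 ± 0.51 and the chemokines CXCL8 by -3.28 ± 0.40 and CXCL6 by -2.72 ± 0.37; all 3 were higher in the fibroblasts than in the EBs, with CXCL8 at 13.42 against 8.60. C1R, a protease that starts the classical complement cascade, read 5.22, 5.33, 5.74, 6.0 and 6.67 in the lines, 9.68 in the EBs and 12.62 in the fibroblasts (-3.89 ± 0.55). Its partner C1S differed by -2.98 ± 0.39, the regulator CFI by -2.91 ± 0.42 and the protease inhibitor A2M by -3.76 ± 0.89. With the mean of probe sets C1S differed by -0.68 (adjusted p = 0.307) and A2M by -1.10 (adjusted p = 0.143), and both calls were lost. The chemokine CCL20 was the one called higher in ES cells (2.84 ± 0.43). The immediate early factor JUN differed by -2.48 ± 0.41 and the phosphatase DUSP1 by -1.55 ± 0.34, the 2 calls among 22 immediate early genes. Their share was 9.09%, against 2.9% of all genes. Both calls were lost with the mean of probe sets, at -0.51 for JUN (adjusted p = 0.667) and -0.61 for DUSP1 (adjusted p = 0.441). The JUN call was also lost with the control RNA covariate over arrays (-1.78, adjusted p = 0.114). A2M and DUSP1 had highest adjusted p of 0.0895 and 0.0807.

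Among the blood and macrophage markers, PTPRC and HBZ were near the lowest levels on the EB array. Levels of the macrophage markers are not given here. The cells that held the IL1B RNA were not identified. PTPRC (CD45), present on white blood cells, read 4.04 in the EBs and 4.11 to 4.82 in the lines, and the embryonic globin HBZ read 4.43 in the EBs and 4.20 to 4.68 in the lines. Of 29 blood and macrophage genes, the integrin ITGB2 (-2.60 ± 0.46) and the actin regulator CORO1A (-1.71 ± 0.29) were called lower in ES cells and 0 higher, with a list median of 0.01. The share called lower was 6.90%, against 2.9% of all genes. ITGB2 read 9.02 in the fibroblasts, against 8.67 in the EBs. Of 25 endothelial genes, the sialomucin EMCN was lower in ES cells (-3.01 ± 0.31, adjusted p = 0.00338) and the angiopoietin receptor TEK higher (2.70 ± 0.56). The share was 4% in each direction, close to those of all genes, 2.9% and 2.76%. PECAM1 and CDH5, the defining junction genes of endothelium, read 5.22 and 4.33 in the EBs and were not called. The TEK call was lost without ORMES7, ORMES9 or ORMES10, with a highest adjusted p of 0.0608.

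Endoderm and liver genes were called at shares near those of all genes. Of 27 liver and yolk sac genes 0 were called lower in ES cells and 1 was higher, APOC3 (2.23 ± 0.49), and of 18 endoderm transcription factors FOXA3 was higher (2.00 ± 0.39) and 0 lower. The shares called higher were 3.70% and 5.56%, against 2.76% of all genes. Alpha-fetoprotein (AFP) read 5.10 in the EBs, below all 5 lines at 6.38, 7.60, 7.35, 9.43 and 9.57, without passing the test (2.97 ± 1.10, adjusted p = 0.162). Albumin (ALB) was near the lowest levels everywhere, at 5.39 in the EBs. Transthyretin (TTR) read 4.77, 4.30, 8.72, 9.59 and 10.42 in the lines and 6.82 in the EBs, and apolipoprotein A1 (APOA1) 6.53, 6.96, 11.52, 9.15 and 11.86 in the lines and 8.72 in the EBs. Both genes were low in ORMES6 and ORMES7, as LUM and COL3A1 were, and in the other 3 lines they exceeded the EBs. The placental hormone subunit CGA showed ORMES9, ORMES10 and ORMES13 at 8.06, 7.07 and 9.55, against 5.43 and 5.58 in ORMES6 and ORMES7 and 5.67 in the EBs. APOC3 and FOXA3 had highest adjusted p of 0.0805 and 0.0608.

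No gene was called in either direction by limma on the lists of MHC class I and antigen processing (22 measured), kidney and intermediate mesoderm (19), cilia (21), adipocytes (13), germ cells (15) and skin epithelium (20). As 5.66% of all genes were called, 0 calls on lists this short do not show that these genes were unchanged. The trophoblast list of 20 genes held 1 call, the transcription factor TFAP2C (2.04 ± 0.41), higher in ES cells. The share was 5%, against 2.76% of all genes. The keratins KRT5 and KRT14 of skin and the trophoblast factor GCM1 read 4.91, 5.58 and 5.38 in the EBs, each inside or within 0.1 of the range of the lines. Of 26 imprinted genes, which are expressed from 1 parental copy, PEG10 (-3.69 ± 0.80) and MEST (-2.18 ± 0.40) were lower in ES cells and the growth inhibitor GRB10 higher (1.11 ± 0.23). Their shares were 7.69% lower and 3.85% higher, against 2.9% and 2.76% of all genes. TFAP2C, PEG10 and GRB10 had highest adjusted p of 0.0718, 0.0737 and 0.0671.

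Some of the largest differences belonged to genes outside these groups. SERPINB7, a serine protease inhibitor, read 4.32 to 4.57 in the lines, 8.94 in the EBs and 4.25 in the fibroblasts (-4.45 ± 0.27, adjusted p = 0.000746). On the ES side, LCK, a kinase best known from T cells, read 7.51, 8.50, 10.42, 9.63 and 9.25 in the lines, 4.16 in the EBs and 4.07 in the fibroblasts (4.90 ± 0.90). The calcium-binding protein S100A6 read 7.45 to 9.23 in the lines, 9.88 in the fibroblasts and 4.67 in the EBs (3.83 ± 0.61). The EBs were the low sample on this probe set, the 1 called of its 3. With the mean of its probe sets S100A6 differed by 2.10, and its call was lost. The LCK call was lost without ORMES10 (adjusted p = 0.0568).

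The lines differed in how close they lay to the EBs, and the order depended on the gene group. Among the 545 genes called higher in ES cells, ORMES6 was the line nearest to the EB level for 220 and ORMES13 for 137, and ORMES7 for 49. Among the 572 called lower, ORMES13 was nearest for 198, ORMES10 for 120, ORMES6 for 108 and ORMES9 for 59. The median differences of the lines were close together, from 1.52 to 1.71 for the first set and from -2.30 to -2.0 for the second. By list, ORMES13 was nearest to the EBs for collagens, at a median of -0.18 against -1.60 in ORMES6 and -1.69 in ORMES7, for the IGF system, at -0.10 against -2.37 in ORMES6, and for BMP signalling, at -0.04 against -1.31 in ORMES7. For the neuron list the nearest were ORMES6 and ORMES10, at -1.18 and -1.21. The mitosis list spanned 1.09 to 1.30 over the lines. The ORMES6 replicates A, B and C themselves had medians of -2.79, -2.72 and -1.34 for the IGF system and of -1.92, -1.83 and -1.05 for collagens, a spread of the order of that between lines. These are descriptions of 1 array per line, or 3 for ORMES6, and were not tested.

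**Figure D5:**
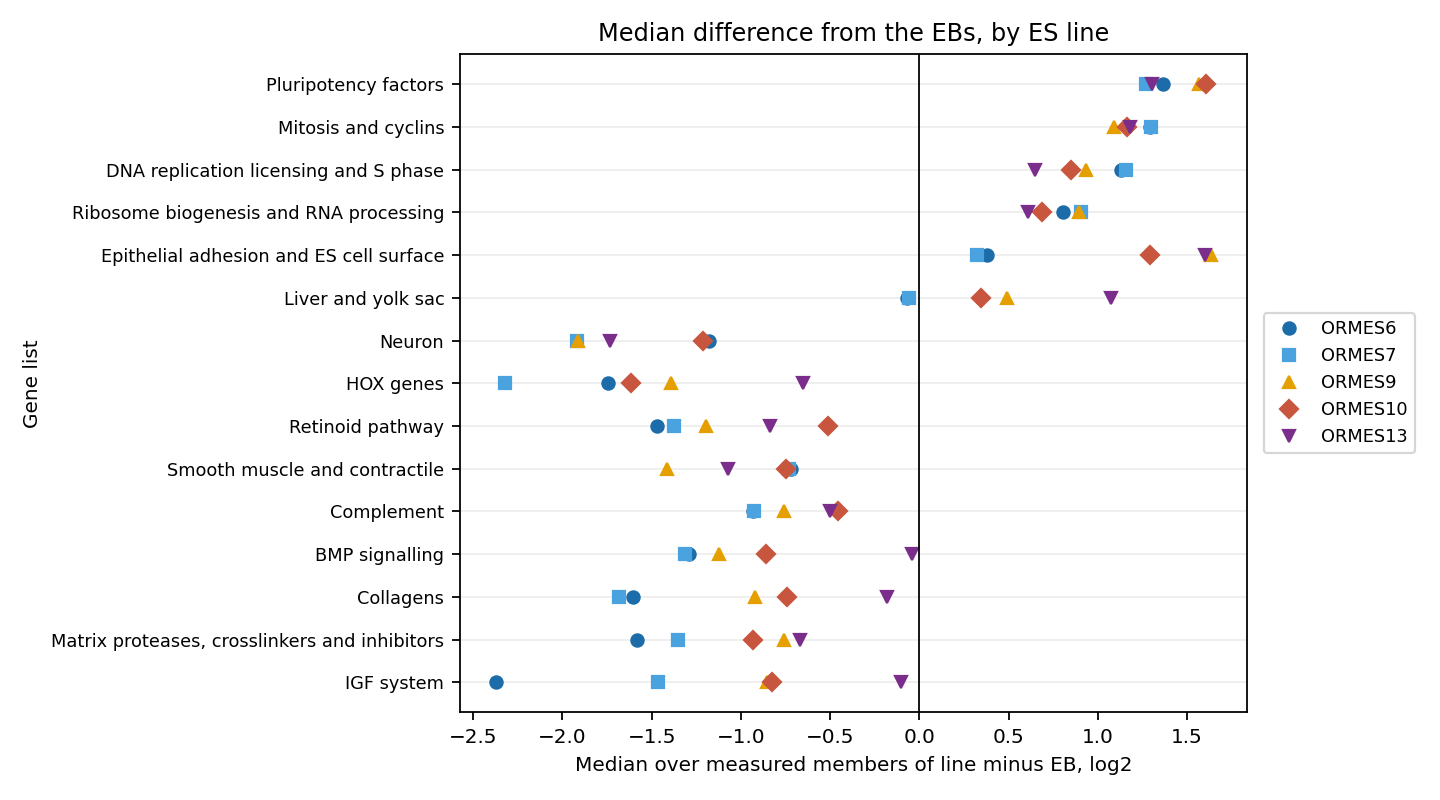
Each symbol is the median, over the measured members of a list, of the difference between 1 ES line and the EB array on the log2 scale; the vertical line marks no difference. The lines lie close together for pluripotency and mitosis genes and spread widely for epithelial, HOX, BMP, collagen and IGF system genes, ORMES13 lying nearest to 0 in the last 4.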

How the data were processed

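RNA of 7 ES arrays, 1 EB array and 1 fibroblast array was hybridised to Affymetrix Rhesus arrays. The authors deposited probe set intensities on a linear scale made with MAS5, per the labels; no genome build is used here. They also deposited log2 ratios of each ES array over the EB array and detection p-values for 5 ES arrays, per the file headers; 143 other per-sample columns, among them EB detection calls, were not used. After 99 control probe sets and 3 with missing values were left out, 52763 of 52865 remained, of which 40557 carried a symbol in the deposited annotation (older symbols updated through the RefSeq gene table). The probe set with the highest mean stood for each of 19751 genes; 1 called gene, MBD2, named for this reason after its values were seen, had a further probe set called the opposite way.

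Signals were taken as log2(signal + 16), without a filter on level, and fitted with limma 3.58.1 in R 4.3.3 (lmFit, eBayes with a variance trend; 4 residual degrees of freedom, median prior 4.38) over 5 lines, the EB and the fibroblast array. P-values were adjusted by Benjamini-Hochberg. A simulation of the probe set fit was made, with 1200 of 52763 probe sets changed and 5 runs. It recovered 60.4% of differences of 2 log2 units, 97.9% of 4 and 99.7% of 6, and 4.73% of its calls were false. That false share holds for the simulated data and is not a rate for these arrays, because the spread between EB cultures is unknown. Signal precision is limited by the number of arrays.

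The comparison and the 50 gene lists were chosen with earlier results of these data known. Genes were named from the 20 called differences of largest size per direction, up to 4 called members per list and direction (2 largest where none was called) and cell type markers; the 7 others in the results are marked as chosen after their values were seen. The alternatives tried were other offsets, quantile and median scaling, a signal minimum, leaving out lines or ORMES6 arrays, other fits and the mean of probe sets.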

Additional observations from a re-analysis of the deposited data

Results flagged for a closer look

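Among the 167 genes named in the text, 9 had 1 ES line standing apart from the other 4 by Dixon's test, which by chance marks about 1 group in 20. ORMES13 stood apart for NANOG, where it was the lowest line at 11.27, for HOXA7, where it was the highest at 6.0, for ELAVL4, the highest at 6.52, and for MYH3, the lowest at 4.25. ORMES10 was the highest line for SYT4 at 6.81 and for PTX3 at 5.96. ORMES9 was the lowest for EMILIN1 at 5.29, ORMES6 the highest for CDKN1B at 8.91 and ORMES7 the highest for DUSP1 at 9.64. In each of these 9 genes the EB level lay outside the range of the 5 lines, as in all called genes.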

How the results depend on the processing

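No paired analysis was possible because the EBs are 1 array and share no replicate number with the lines. Of the probe sets called (481 higher in ES, 805 lower) and genes called (545 and 572), leaving out a line or an ORMES6 array gave 151 to 643 and 349 to 966 probe sets and 193 to 664 and 259 to 629 genes. With an offset of 1, 444 probe sets and 373 genes were lower; with an offset of 64, 1330 probe sets were lower. With a mean signal of at least 50, 952 probe sets were higher. Tested beyond 2-fold, 24 and 84 probe sets and 17 and 45 genes were called. With the mean of probe sets per gene, 293 genes were higher. With the control RNA covariate over 5 lines, 1 and 0 probe sets and 3 and 3 genes were called. Medians above 0 were found for 22 of 50 lists, and for 14 with that covariate over lines and 14 with it over arrays and the line as a random block. No named gene that was called reversed under any setting run. Leaving out a line or an ORMES6 array could not reverse a call, as the EB level lay outside the ES range. Across all called genes, 1114 of 1117 kept their direction after quantile normalization and 1106 with the mean of probe sets. The cause of these shifts was not tested. Both covariate fits extrapolate, as the EB value lies below every ES value, and the fit over lines leaves 1 fewer degree of freedom. With 1 EB array, the spread between EB cultures is unknown, and levels near the floor understate differences.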
